A study of Mus musculus with 7 samples.

Results

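Accessible chromatin was compared at 10 mouse genes of bile acid metabolism, in 3 hotspot lists that were each made with a different nuclease. The genes were Cyp7a1, Cyp7b1, Cyp27a1 and Cyp8b1 (synthesis), Slc27a5 and Baat (conjugation), Slc10a1 and Slco1b2 (uptake), and Abcb11 and Abcc2 (export). A hotspot is a stretch of the genome where the ends left by nuclease cleavage cluster above background. Hotspots were taken when they overlapped the body of 1 of these genes or the 20 kb on either side of it, called its window here. The windows held 274 of the 190871 hotspots of the 3 lists, which were 87 of 60910 for Benzonase, 83 of 57675 for Cyanase and 104 of 72286 for DNase I. When hotspots that overlapped by at least 1 bp were merged, they gave 114 of the 94491 regions of the genome.

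All samples were liver of male C57BL/6 mice aged 8 weeks, with no genetic change or drug named. Benzonase and Cyanase were applied to pulverized frozen tissue, with 1 library for each enzyme at 0.25, 1 and 4 U, and DNase I was applied to nuclei purified from fresh tissue. The labels list 1 DNase I sample, while the study's methods speak of combined replicates. The nuclease and the preparation of the tissue therefore changed together, and their parts in any difference cannot be told apart. Tags of all libraries of a nuclease were pooled before hotspots were called, so each nuclease gave 1 list with no spread between replicates, and no test between nucleases was possible. The lists hold positions and no tag numbers, so the depth behind a hotspot is unknown. A position without a hotspot is therefore only a position that was not called, not one shown to be closed. The 95% Wilson intervals given with shares cover counting error only, and they treat regions or pairs of the same window as independent.

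Bile acids are made from cholesterol in hepatocytes, conjugated to taurine or glycine, and pumped into bile. Most are taken up again in the ileum and return to the liver in portal blood. Cyp7a1 starts and limits the classical route of synthesis. Cyp27a1 and Cyp7b1 act in the alternative route, which starts from the sterol side chain, and Cyp8b1 sets how much cholic acid is made. Slc27a5 activates bile acids with coenzyme A and Baat joins them to the amino acid. Slc10a1 and Slco1b2 carry bile acids from blood into the hepatocyte, and Abcb11 and Abcc2 move bile salts and organic anion conjugates across the canalicular membrane into bile.

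The sequence just upstream of the outermost start site differed in base composition among the genes. The 300 bases upstream are shown for Baat, the only 1 of the 10 whose start was called with a single nuclease, and for 2 genes chosen after their values were seen. Cyp8b1 shares with Baat a match to a binding motif of the liver factor HNF4, and Slco1b2 had the lowest GC content. Each is read 5′ to 3′ on the strand of the gene in mm9, at chr4:49519430-49519729, chr9:121825424-121825723 and chr6:141577739-141578038, and capitals mark matches to the motifs searched.
Baat: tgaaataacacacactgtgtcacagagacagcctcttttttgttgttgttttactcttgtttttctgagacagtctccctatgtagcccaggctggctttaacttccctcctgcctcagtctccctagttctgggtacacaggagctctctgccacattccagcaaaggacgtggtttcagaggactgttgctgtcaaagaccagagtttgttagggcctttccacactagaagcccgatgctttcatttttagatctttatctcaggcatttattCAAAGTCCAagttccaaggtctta
Cyp8b1: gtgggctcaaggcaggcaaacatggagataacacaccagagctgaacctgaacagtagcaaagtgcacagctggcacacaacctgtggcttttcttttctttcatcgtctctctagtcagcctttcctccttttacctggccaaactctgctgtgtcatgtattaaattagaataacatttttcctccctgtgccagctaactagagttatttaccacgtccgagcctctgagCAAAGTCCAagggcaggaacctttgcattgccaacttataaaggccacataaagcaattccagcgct
Slco1b2: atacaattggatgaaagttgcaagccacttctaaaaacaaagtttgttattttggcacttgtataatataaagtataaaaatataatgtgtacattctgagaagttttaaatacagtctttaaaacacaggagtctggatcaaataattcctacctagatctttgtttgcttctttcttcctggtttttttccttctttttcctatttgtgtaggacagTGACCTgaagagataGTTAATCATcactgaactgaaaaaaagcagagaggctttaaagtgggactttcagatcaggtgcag
GC content was 45.0% for Baat, 46.3% for Cyp8b1 and 33.0% for Slco1b2, beside a median of 53.3% over the 22365 protein-coding genes. Of the 10 genes, Cyp7b1 (63.0%) and Cyp27a1 (55%) were above that median, and the median of the 10 was 46.5%.

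Further stretches, each the central 200 bases of a region, show what the nucleases did and did not share. The first is a region in intron 1 of Cyp27a1 that all 3 nucleases called, at chr1:74768173-74768372. The second is in intron 1 of Baat and was called with DNase I alone, at chr4:49516484-49516683. The third is in intron 2 of Abcc2 and was called with Benzonase and Cyanase but not with DNase I, at chr19:43863916-43864115. The fourth, chosen after its values were seen, lies in the coding sequence of the single exon of Cyp8b1 and was also called with Benzonase and Cyanase but not with DNase I, at chr9:121824278-121824477. Each is given on the strand of its gene, with motif matches in capitals.
Cyp27a1 intron, common: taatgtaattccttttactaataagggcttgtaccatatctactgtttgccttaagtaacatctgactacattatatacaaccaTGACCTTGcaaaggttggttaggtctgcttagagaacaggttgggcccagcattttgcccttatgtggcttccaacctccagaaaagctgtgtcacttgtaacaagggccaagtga
Baat intron, DNase I unique: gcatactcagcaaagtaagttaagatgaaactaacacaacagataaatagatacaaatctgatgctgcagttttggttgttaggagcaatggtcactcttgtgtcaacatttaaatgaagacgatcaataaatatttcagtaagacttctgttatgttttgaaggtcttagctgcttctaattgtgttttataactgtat
Abcc2 intron, Benzonase-Cyanase unique: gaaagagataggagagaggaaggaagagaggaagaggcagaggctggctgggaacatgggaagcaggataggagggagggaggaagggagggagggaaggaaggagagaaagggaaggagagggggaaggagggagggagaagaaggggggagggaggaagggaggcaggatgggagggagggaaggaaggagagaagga
Cyp8b1 exon, Benzonase-Cyanase unique: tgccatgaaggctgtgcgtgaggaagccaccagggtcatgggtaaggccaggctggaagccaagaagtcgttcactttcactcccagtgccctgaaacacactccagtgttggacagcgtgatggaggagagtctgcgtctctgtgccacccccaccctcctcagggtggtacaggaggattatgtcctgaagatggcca
GC content was 41.5%, 32.5%, 59.5% and 57.5% in this order. The Abcc2 stretch is a purine run in which 94.0% of bases on the gene's strand were A or G.

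Start sites were called at 9 of the 10 genes with Benzonase, at 9 with Cyanase and at all 10 with DNase I. Over all protein-coding genes, a start site lay in a Benzonase hotspot for 57.4%, in a Cyanase hotspot for 55.7%, in a DNase I hotspot for 47.4% and in hotspots of all 3 lists for 46.1%. The exception was Baat, whose start lay in a DNase I hotspot alone, a pattern found at 194 genes, or 0.867%. The 8 hepatocyte marker genes (Alb, Ttr, Apoa1, Apob, Serpina1c, Cps1, Tat and Hnf4a) had their starts in hotspots of all 3 lists, and of 6 genes not used in liver 0 had a start in any list. Of 16 markers of Kupffer, endothelial, stellate and bile duct cells, 1 (Sox9) had its start in all 3 lists. Kupffer cell starts were called at 4 of 4 genes with DNase I and at 1 with each other enzyme, and stellate cell starts at 0 of 4 with DNase I, 3 with Benzonase and 4 with Cyanase. Of the 16 markers, 5 had a start in no list, which were endothelial Stab2, Lyve1 and Pecam1 and bile duct Krt7 and Epcam. Endothelial Kdr was called without DNase I, and bile duct Krt19 with Benzonase alone. Among the Kupffer cell genes, Clec4f lacked Benzonase, Emr1 lacked Cyanase, and Cd68 and Marco had DNase I alone. Of the stellate cell genes, Lrat, Reln and Pdgfrb lacked only DNase I, and Des had Cyanase alone. The part of these cells in the results below was not tested.

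**Figure D1:**
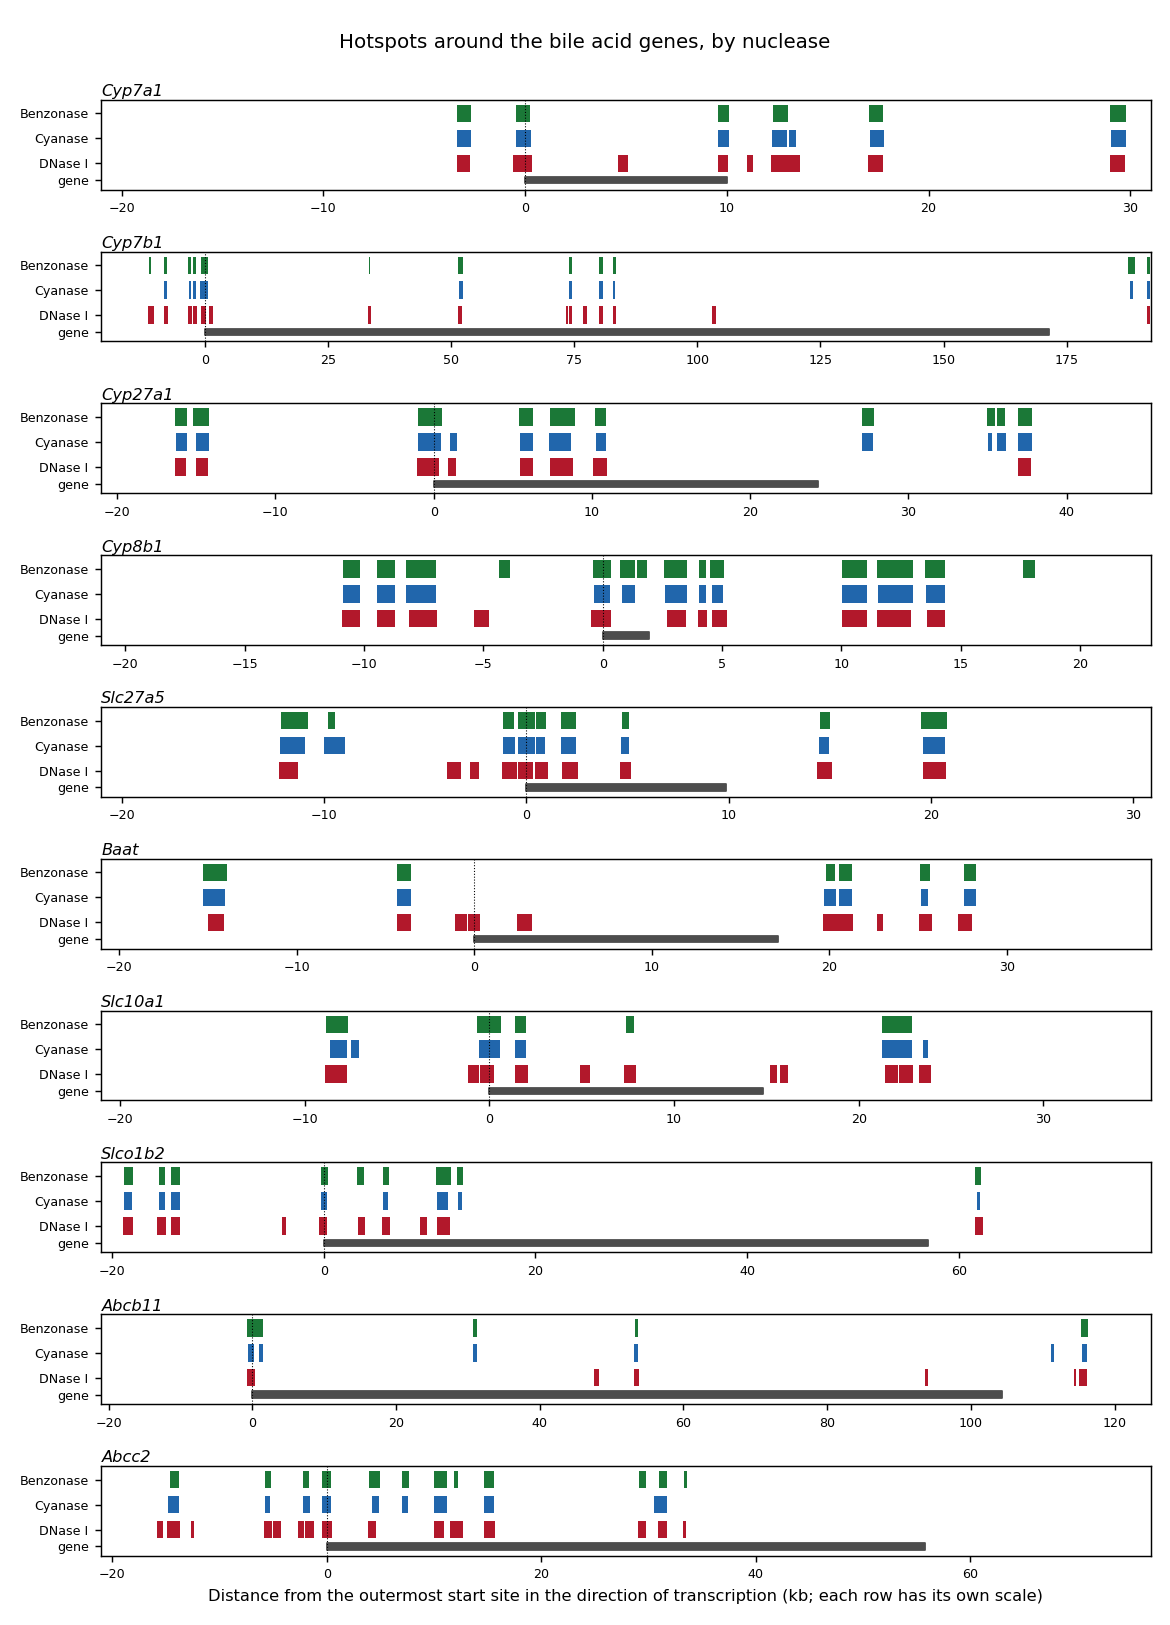
Hotspots in the 10 windows by distance from the outermost start site in kb, in the direction of transcription, with 1 row of bars per nuclease and the gene body in grey. Each panel has its own scale, and most bars line up in all 3 rows, while the start of Baat has a DNase I bar alone.

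Cyp7a1 (ENSMUSG00000028240.2, minus strand, chromosome 4 from 6192759 to 6202780, 6 exons) had 6 Benzonase, 7 Cyanase and 8 DNase I hotspots in its window, in 8 regions. Its start lay in a Benzonase hotspot of 695 bp. The Cyanase hotspot there was 748 bp and the DNase I hotspot 918 bp, and the DNase I hotspot held both others. A second region 3.04 kb upstream of the start and a region at the 3′ end of exon 6 were called with all 3 enzymes. The bounds of the upstream region were nearly alike, with widths of 684, 670 and 693 bp for Benzonase, Cyanase and DNase I. Beyond the 3′ end, 1 DNase I hotspot of 1425 bp spanned what Benzonase gave as 713 bp and Cyanase as separate hotspots of 754 and 357 bp. The 2 regions not shared were DNase I hotspots of 485 bp in intron 4 and 292 bp downstream of the gene. No region of this window was unique to Benzonase and Cyanase.

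Cyp7b1 (ENSMUSG00000039519.6, minus strand, chromosome 3 from 17971950 to 18143338) is the longest of the 10 genes at 171 kb. Its window had 12 Benzonase, 10 Cyanase and 16 DNase I hotspots. The start lay in hotspots of 1508, 1468 and 1097 bp for Benzonase, Cyanase and DNase I. The first 2 reached 649 and 574 bp into the gene and the DNase I hotspot 276 bp. DNase I gave a further hotspot of 658 bp at 1.28 kb inside intron 1, where neither other enzyme had a call. Of the 17 regions, 5 were DNase I unique, with GC contents between 35.1% and 41.8%. The only Benzonase-Cyanase unique region, 1334 bp wide with 71.5% GC, lay in the neighbouring gene Bhlhe22. Cyp7b1 also held 2 regions with Benzonase and DNase I but no Cyanase, at 33.5 kb inside the gene and at 11.1 kb upstream.

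Cyp27a1 (ENSMUSG00000026170.5, plus strand, chromosome 1 from 74760148 to 74784464) was the only gene of the 10 with no DNase I unique region. It had 10 Benzonase, 11 Cyanase and 8 DNase I hotspots. Its start hotspots were wide and alike, at 1516, 1432 and 1395 bp for Benzonase, Cyanase and DNase I. Intron 1 held 4 regions, all common. The widest, of 1625 bp, centred 8.12 kb from the start, is the one printed above, and its middle holds a match to the motif of LRH-1, a nuclear receptor of bile acid synthesis. The region nearest to the start, 1.21 kb inside the gene, was called with Cyanase and DNase I but not with Benzonase. All 3 Benzonase-Cyanase unique regions were in or at the start of the downstream neighbour Prkag3, with GC contents of 55.7%, 60.8% and 55%.

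Cyp8b1 (ENSMUSG00000050445.4, minus strand, chromosome 9 from 121823474 to 121825423) has a single exon of 1950 bp and stood in the densest window of the 10. It had 14 Benzonase, 11 Cyanase and 11 DNase I hotspots, or 33.4, 26.2 and 26.2 per 100 kb. At least 99.7% of all genes had a lower density in each list. The window of 42 kb is mostly flank, so this density is not of the gene alone. Its regions between 10.5 and 17.9 kb downstream of the start lay at the start or in the body of the neighbour Ccbp2. The farthest of them, at the start of Ccbp2, was called with Benzonase alone and had 58.9% GC. The start hotspots were 770, 650 and 830 bp wide. Inside the exon, Benzonase and Cyanase called a region from 121824064 to 121824691 and Benzonase a second one from 121823559 to 121823975. DNase I had no hotspot in the exon past the one at the start. The 2 exon regions had 54.6% and 58.0% GC. Upstream of the gene the lists differed both ways, with a region called with Benzonase alone 4.13 kb away at 47.3% GC and one called with DNase I alone 5.07 kb away at 39.0%. Of the 15 regions of this window, 10 were called with all 3 enzymes.

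Slc27a5 (ENSMUSG00000030382.8, minus strand, chromosome 7 from 13573695 to 13583541) had 9 Benzonase, 9 Cyanase and 10 DNase I hotspots. Its annotated starts were covered by 2 hotspots in each list. The one at the outermost start was 846, 849 and 748 bp wide. Within the gene, exon 2 and exon 4 lay in regions common to all 3 lists. The 2 DNase I unique regions, 2.57 and 3.58 kb upstream, had 29.7% and 38.0% GC. The Benzonase-Cyanase unique region, 9.48 kb upstream in the body of Zbtb45, had 65.4%.

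Baat (ENSMUSG00000039653.3, minus strand, chromosome 4 from 49502294 to 49519429) had 6 Benzonase, 6 Cyanase and 9 DNase I hotspots, and no Benzonase or Cyanase hotspot fell within its body or within 3.5 kb of its outermost start. The DNase I hotspot at the start ran from 49519095 to 49519803, a width of 709 bp with 44.6% GC. It was flanked by DNase I hotspots of 658 bp upstream (39.4% GC) and of 817 bp in intron 1 (40% GC). The intron hotspot overlapped the 2 kb upstream of another annotated start of Baat and is counted below as a promoter region. The nearest Benzonase hotspot began 3557 bp upstream of the start and the nearest Cyanase hotspot 3553 bp. At that place the 3 enzymes met, with widths of 800, 804 and 809 bp. All 5 common regions lay outside the gene body. Its upstream 300 bases had 45.0% GC, beside a median of 43.3% over genes called at the start with DNase I alone and of 58.0% over genes called with all 3. Some genes with a lower upstream GC content than Baat, such as Slco1b2, were called with all 3. The part of GC content in these calls was not tested.

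Slc10a1 (ENSMUSG00000021135.6, minus strand, chromosome 12 from 82054172 to 82068971) had 5 Benzonase, 6 Cyanase and 11 DNase I hotspots. At the start, Benzonase gave 1 hotspot of 1286 bp and Cyanase 1 of 1160 bp. DNase I gave 2 there, of 789 and 574 bp. The Benzonase and Cyanase hotspots reached 615 and 604 bp into the gene and the DNase I hotspot 273 bp. The 3 DNase I unique regions had 41.8%, 41.9% and 47.4% GC. The highest of these was in intron 1. Exon 2 lay within a DNase I hotspot of 622 bp and in part in a Benzonase hotspot of 474 bp, with no Cyanase hotspot.

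Slco1b2 (ENSMUSG00000030236.7, plus strand, chromosome 6 from 141578039 to 141635167) had 9 Benzonase, 8 Cyanase and 10 DNase I hotspots. Its start was called with all 3 enzymes at 36.4% GC over the merged region, with widths of 644, 556 and 737 bp. DNase I alone called a region 3.75 kb upstream with 29.4% GC, the lowest of the 114, and a region in intron 3 with 39.7%. Benzonase and Cyanase alone called another region of intron 3, at 12.8 kb, with 44.3% GC. Past intron 3, no enzyme had a hotspot in the gene.

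Abcb11 (ENSMUSG00000027048.8, minus strand, chromosome 2 from 69076339 to 69180671) had 4 Benzonase, 6 Cyanase and 6 DNase I hotspots over a gene of 104 kb. This was the sparsest window of the 10, with 2.77, 4.16 and 4.16 hotspots per 100 kb, and 41.8%, 55.2% and 49.3% of all genes had a lower density. Its start was where the lists differed most in extent. A single Benzonase hotspot of 2203 bp reached 1489 bp into the gene, while the DNase I hotspot of 1121 bp reached 319 bp. Cyanase divided the same stretch into a hotspot of 909 bp at the start, reaching 252 bp inside, and another of 588 bp in intron 1. The inner part of this stretch was thus called with Benzonase and Cyanase and not with DNase I, although merging by overlap counts the whole as common. Of its 3 DNase I unique regions, 1 lay on exon 26 and 1 in intron 11, and a Benzonase-Cyanase unique region lay in intron 6.

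Abcc2 (ENSMUSG00000025194.4, plus strand, chromosome 19 from 43856682 to 43912441) had 12 Benzonase, 9 Cyanase and 15 DNase I hotspots. Its start hotspots were alike, at 853, 821 and 925 bp. Of the 15 regions, 3 were called with Benzonase and DNase I but not with Cyanase, in intron 2, at exon 13 and in intron 16. At exon 13 only the DNase I hotspot touched the exon, over 41 of its 147 bp. The Benzonase hotspot there lay in the intron. The Benzonase-Cyanase unique region was the purine-rich one in intron 2, 704 bp wide with 50.9% GC over its whole length. All 3 DNase I unique regions lay upstream, between 4.66 and 15.5 kb from the start.

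**Figure D2:**
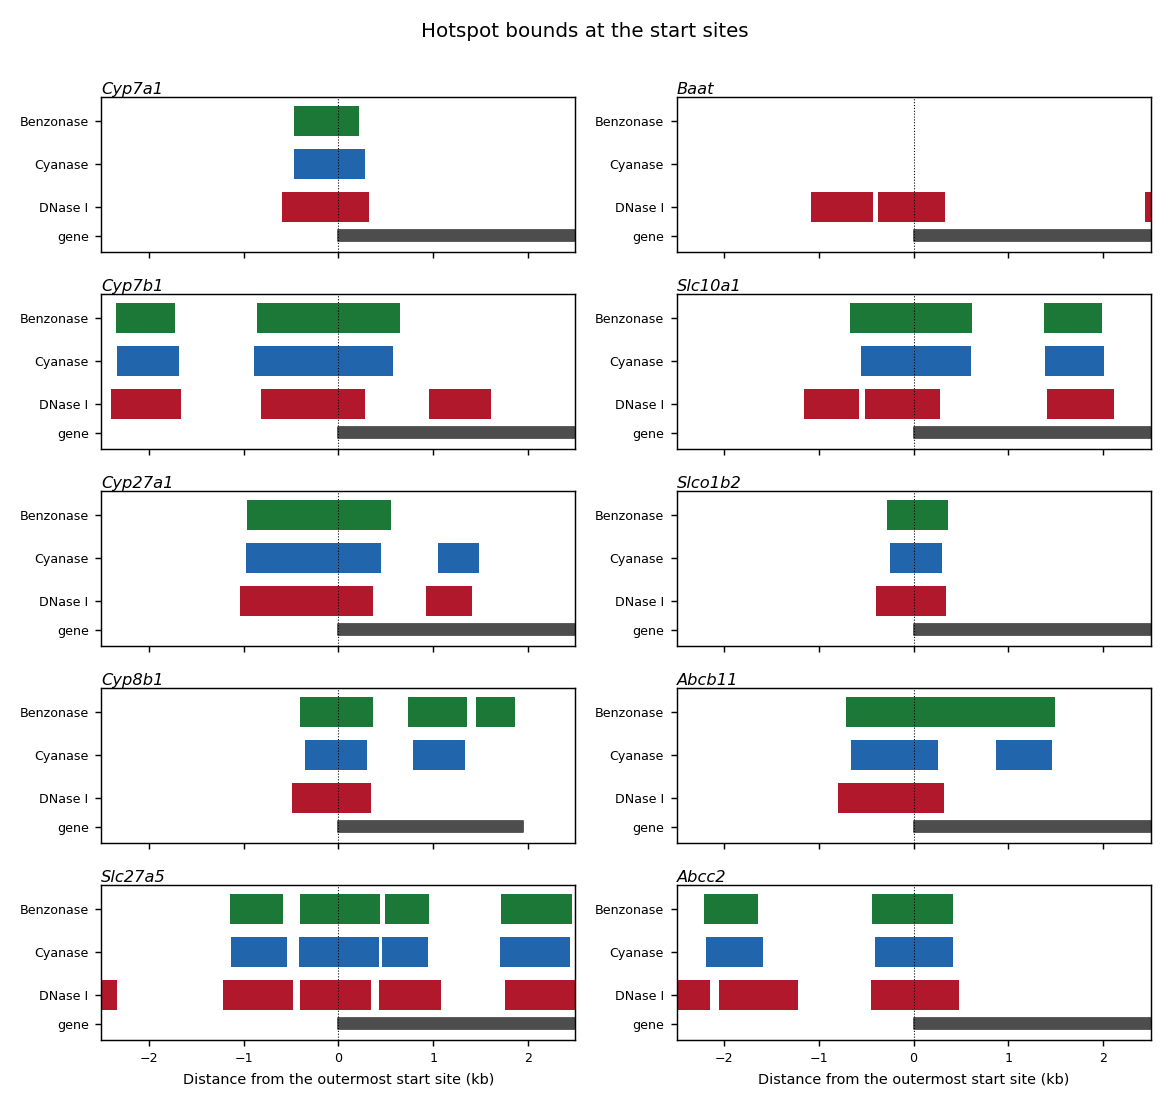
Hotspot bounds within 2.5 kb of the outermost start site of each gene, in kb along the direction of transcription, with the gene body in grey. Baat has DNase I bars alone, and at Abcb11 the Benzonase bar of 2203 bp spans the gap between the Cyanase bars of 909 and 588 bp.

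The median width of the start hotspot was 853 bp for Benzonase and 849 bp for Cyanase over 9 genes, and 874 bp for DNase I over 10. Over all genes called in a list, the medians were 1254 bp, 1161 bp and 855 bp. The Benzonase hotspot reached further into the gene than the DNase I hotspot at 7 of 9 starts, where the share over all such starts was 88.4%. It reached further upstream at 3 of 9, beside 69.9%. The Cyanase hotspot reached further into the gene than the DNase I hotspot at 4 of 9 starts, beside 85%, and further upstream at 3 of 9, beside 62.1%. With 9 starts these are descriptions of the genes listed. The median difference in reach into the gene, Benzonase minus DNase I, was 97 bp over the 9 starts and 257 bp over all genes, and it ranged from -103 bp to 1170 bp, the latter at Abcb11.

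The windows held more hotspots than those of most genes. The median over the 10 genes was 11.2 Benzonase, 10.7 Cyanase and 15.7 DNase I hotspots per 100 kb, where the medians over all protein-coding genes were 3.83, 3.61 and 4.24. Abcb11 was the exception, with the Benzonase and DNase I densities below the medians of all genes. Window density includes the flanks, and 7 of the 114 regions lay on the start of another gene (Prkag3, Ccbp2, Zfp446, Zbtb45, Mrpl50 with Zfp189, and Srsf5). The outermost region inside a window lay 19.9 kb from Cyp7b1, and the nearest region left out lay 20.3 kb from Cyp27a1.

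**Figure D3:**
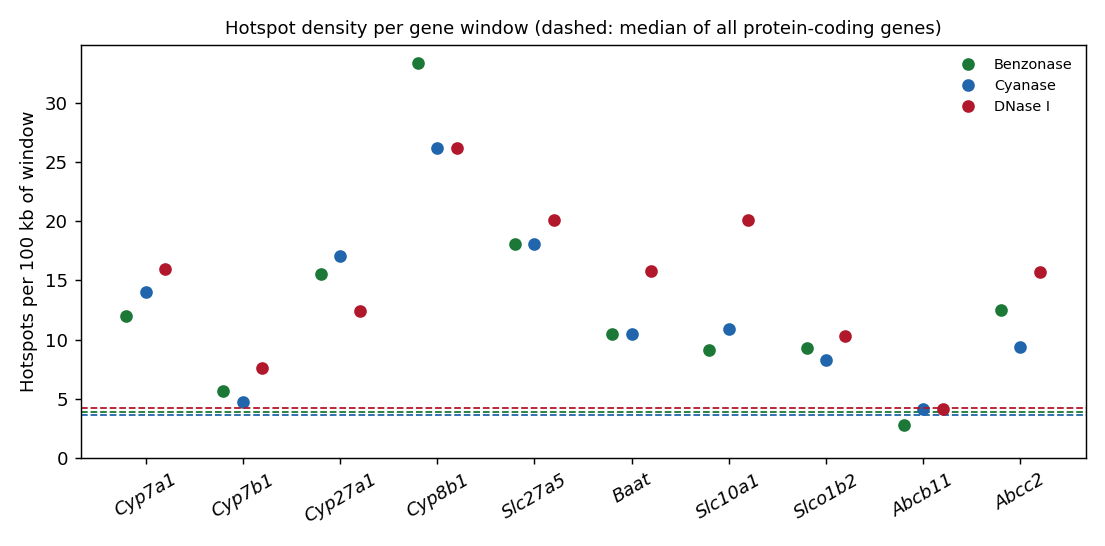
Hotspots per 100 kb of window (vertical axis) for each gene and nuclease, with dashed lines at the median over all protein-coding genes in each list. Cyp8b1 is highest, with 33.4 for Benzonase, and Abcb11 is lowest, with 2.77 for Benzonase.

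Regions were classed as common when DNase I and at least 1 of the other enzymes called them, as DNase I unique, or as Benzonase-Cyanase unique. Of the 114 regions, 75 were common (65.8%, interval 56.7 to 73.9), where the share over the genome was 45.4%. DNase I unique regions numbered 25 (21.9%, 15.3 to 30.4), beside 28.3% in the genome. Benzonase-Cyanase unique regions numbered 14 (12.3%, 7.46 to 19.6), beside 26.3%. All 3 lists called 66 regions (57.9%, 48.7 to 66.6), beside 40%. The genome's Benzonase-Cyanase unique share lay above the interval for the windows and its common share below it, while its DNase I unique share lay inside. These intervals count regions as independent, although the regions are grouped in the windows of the listed genes. Of the 14 Benzonase-Cyanase unique regions, 4 were at Cyp8b1 and 3 at Cyp27a1, while Cyp7a1 and Baat had none. The comparison therefore describes these windows and is not a test against the genome. With a stricter rule for sharing, in which 50% of each hotspot had to overlap, the Benzonase-Cyanase unique share was 19.4% (25 of 129, 13.5 to 27.0), beside 31.3% over the genome.

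By role, the synthesis genes had 35 common regions, 8 unique to DNase I and 8 unique to Benzonase-Cyanase. In the same order, they numbered 12, 6 and 1 at the conjugation genes and 14, 5 and 2 at the uptake genes. The export genes had 14, 6 and 3. Over the genome, these classes made up 45.4%, 28.3% and 26.3% of regions. The roles are those of the listed genes, and some regions lay on neighbouring genes. Among them were the Benzonase-Cyanase unique regions at Cyp7b1, Cyp27a1 and Slc27a5, and the farthest of those at Cyp8b1. By place, 5 of the 14 Benzonase-Cyanase unique regions lay in the body of a listed gene, on the exon of Cyp8b1 and in introns of Slco1b2, Abcb11 and Abcc2. The start sites and the 2 kb upstream of them held 3 DNase I unique regions, all at Baat, and no Benzonase-Cyanase unique region, out of 15. Over the genome, 7.32% of regions in such places were DNase I unique and 21.4% Benzonase-Cyanase unique. The first share lay just inside the interval of the 15 regions (7.05 to 45.2) and the second just above its interval (0 to 20.4). When regions on any other protein-coding gene were left out, which was decided after seeing the data, 95 remained, of which 63 were common, 24 DNase I unique and 8 Benzonase-Cyanase unique (8.42%, 4.33 to 15.7). Over the windows of all protein-coding genes, 48.7% of regions chosen this way were common, 26.9% DNase I unique and 24.4% Benzonase-Cyanase unique.

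The unique classes differed in GC content, with ranges that overlapped between 42.5% and 47.5%. Common regions had a median of 45.0% (range 32.9 to 58.1) and DNase I unique regions 39.7% (29.4 to 47.5). Benzonase-Cyanase unique regions had 54.8% (42.5 to 71.5), and 11 of the 14 were above the highest DNase I unique region. The medians of these classes over the genome were 48.8%, 42.3% and 54.3%. No DNase I unique region of the 25 was above the median of all regions, 48.3%, and 19 of the 75 common regions were. Over the genome, the upper quartile of DNase I unique regions, 45.9%, was also below this value, while the median of common regions, 48.8%, was above it. The exceptions among the Benzonase-Cyanase unique regions, at or under 47.3%, were the introns of Abcb11 (42.5%) and Slco1b2 (44.3%) and the region upstream of Cyp8b1 (47.3%). Many of the highest values in this class were on neighbouring genes. These were Bhlhe22 (71.5%), Zbtb45 (65.4%), Ccbp2 (58.9%) and Prkag3 (60.8%, 55.7% and 55%). The classes were not compared in GC content without such regions.

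**Figure D4:**
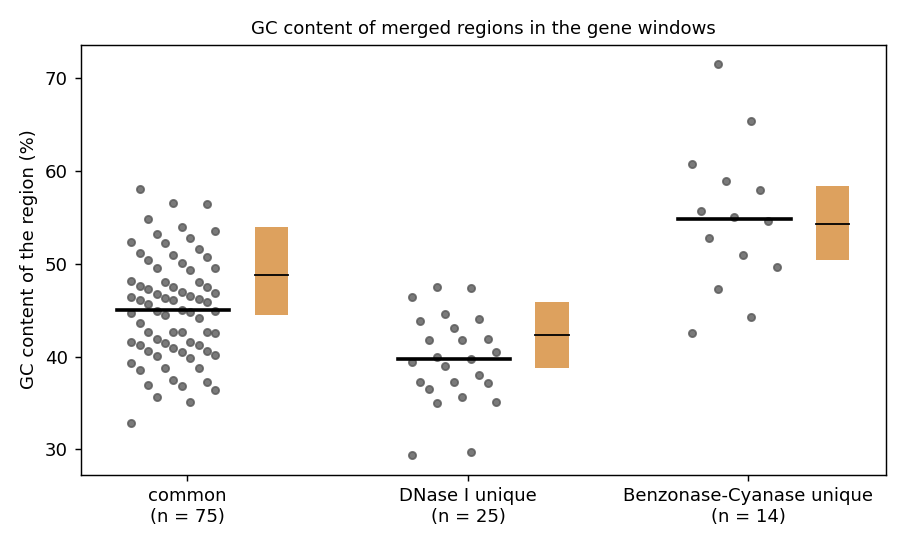
GC content in percent of each merged region in the windows by class, with the class median as a black line and the genome's quartiles and median for the same class as an orange bar with a thin line. DNase I unique regions lie between 29.4% and 47.5%, and 11 of the 14 Benzonase-Cyanase unique regions are above them.

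Where a hotspot of 1 list overlapped exactly 1 hotspot of another and the reverse, the bounds could be compared. Benzonase and Cyanase gave 76 such pairs, which shared a median of 89.5% of their joint length, and Cyanase was the wider in 25 (32.9%, 23.4 to 44.1), beside 32.9% over the genome. DNase I was wider than its Benzonase partner in 46 of 68 pairs (67.6%, 55.8 to 77.6), beside 49.7%, with a median difference of 44 bp. It was wider than its Cyanase partner in 47 of 63 pairs (74.6%, 62.7 to 83.7), beside 54.5%, with a median difference of 58 bp. The difference, DNase I minus Benzonase, ran from -1082 bp at the start of Abcb11 to 927 bp in intron 2 of Abcc2. Hotspots with no partner were narrower, with a median of 555 bp for 25 DNase I hotspots, 463 bp for 3 Benzonase hotspots and 422 bp for 2 Cyanase hotspots. Those with a partner had medians of 780, 710 and 705 bp. The genome had medians of 549, 368 and 356 bp without a partner and 730, 705 and 676 bp with one, in the same order of nucleases, and the 3 and 2 hotspots are too few to set against these.

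**Figure D5:**
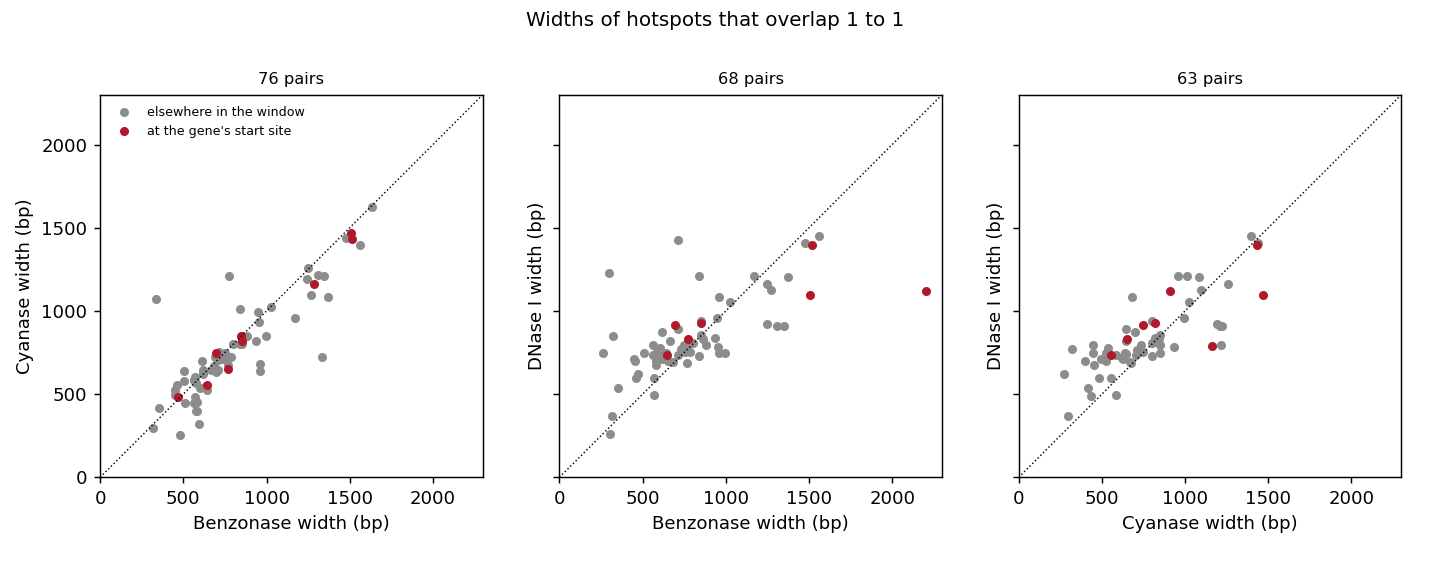
Width in bp of hotspots that overlap 1 to 1, for Benzonase and Cyanase (76 pairs), Benzonase and DNase I (68 pairs) and Cyanase and DNase I (63 pairs), with start sites in red and equal width as a dotted line. Points lie above the line in 46 of 68 and 47 of 63 pairs in the panels with DNase I.

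A set of 7 short motifs was searched on both strands. They were HNF4 (CAAAGTCCA), HNF1 (GTTAATNAT), FOXA (TGTTTAC), C/EBP (TTGCGCAA), LRH-1 (CAAGGTCA), Sp1 (GGGCGG) and the nuclear receptor element AGGTCA, which is contained in the LRH-1 letters. In the 300 bases upstream of the start, HNF4 letters were found at Cyp8b1 (bases -67 to -59 from the start) and Baat (-24 to -16), where 0.469% of all genes had a match. HNF1 letters were found at Slco1b2, beside 0.805% of genes. Sp1 letters were found at Cyp7b1, Cyp27a1 and Slc27a5, beside 41.5% of genes, and AGGTCA at Cyp7b1, Slc10a1, Slco1b2 and Abcb11, beside 15.3%. The FOXA, C/EBP and LRH-1 letters were at 0 of the 10 genes, beside 3.42%, 0.192% and 1.5%. A match is a run of letters and not a binding site, and no match says only that these letters are not in this window.

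In the central 300 bases of the regions, LRH-1 letters were found in 7 of 75 common regions, in 0 of 25 DNase I unique and in 0 of 14 Benzonase-Cyanase unique regions, beside 3.29%, 4.15% and 2.64% of all regions of these classes. At those shares, 0 in so few unique regions sets them apart from neither the genome nor the common regions. AGGTCA was found in 31 of 75 common, 8 of 25 DNase I unique and 1 of 14 Benzonase-Cyanase unique regions, beside 27.7%, 29.9% and 21.4%. FOXA letters were found in 7, 3 and 0 regions of these classes, beside 6.83%, 9.60% and 2.99%. Sp1 letters were found in 4, 0 and 1, beside 21.6%, 2.90% and 19.8%. HNF4 letters were found in 3, 1 and 0, beside 1.88%, 2.08% and 0.423%, and HNF1 letters in 1, 1 and 0, beside 2.07%, 2.65% and 0.379%. C/EBP letters were found in none.

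Other genes of the pathway were scored at their start sites in the same way. Of 13 further genes of synthesis and conjugation, 12 were called with Benzonase, 13 with Cyanase and 12 with DNase I. Ch25h, which hydroxylates cholesterol, lacked a DNase I hotspot at its start, and Slc27a2, an acyl-CoA synthetase, lacked a Benzonase one. Of 10 further liver transporters, 8, 7 and 8 were called. Abcc4, a basolateral exporter, lacked DNase I. The uptake carrier Slco1a1 lacked Cyanase, its relative Slco1a4 was called with DNase I alone as Baat was, and Slc51a was called with none. With a hotspot within 1 kb of a start site, the 13 genes gave 13, 13 and 12 calls for Benzonase, Cyanase and DNase I. Slc27a2 thus had a Benzonase hotspot within 1 kb. The 10 transporters then gave 9, 9 and 9 calls, so some of their differences depend on this distance. The calls of Baat did not change. All 10 regulators, among them Nr1h4 (the bile acid receptor FXR), Nr0b2, Nr5a2 and Hnf4a, were called in all 3 lists. Of 3 genes known for ileal bile acid handling, the uptake carrier Slc10a2 was called in all 3 lists, and Fabp6 and Fgf15 in none.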

How the data were processed

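Hotspot lists of mouse liver were used as deposited. Eland or Bowtie alignment to mm9 was done by the authors, per the labels and the study's methods. Libraries of the same nuclease were combined before the authors called hotspots. The study's methods name a false discovery rate of 0% and a tag density cutoff at the mode. The deposited lists hold 60910 Benzonase, 57675 Cyanase and 72286 DNase I hotspots, in each case more than the study reports for that nuclease. They are therefore not the study's own sets, and whether the same cutoffs made them is not known. The labels list 1 DNase I sample, while the DNase I list calls itself pooled and the study names combined replicates. How many DNase I libraries the list combines is not stated in it. Each of the 3 deposited lists, which call themselves input adjusted and unmerged, holds positions in bp (chromosome, start and end) and no score. No other sample's values were present (0 columns). Tag depth behind single hotspots is unknown.

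Positions were counted from 1 and set against GENCODE M1 on NCBIM37, the same build. A start site was called when at least 1 annotated start lay in a hotspot. Hotspots overlapping by at least 1 bp were merged into regions. A promoter was 2 kb upstream of a start. Genome shares were computed over all regions, hotspots or 22365 protein-coding genes. The genes and gene lists were chosen with earlier results of these data known. The sequence of 1 further item is not reported here. All 10 genes are named, and from the other lists those whose calls differed between nucleases and the ileal genes. Some genes called alike were named after their values were seen. No test between nucleases was run, since each list is pooled. Merging and pairing were tested on simulated lists, where all 5000 planted regions were recovered. Python 3.11.15, numpy 2.4.6, pysam 0.24.0 and matplotlib 3.10.9 were used. Alternatives were other flanks, overlaps, joining distances, width limits and definitions of GC content and start sites.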

Additional observations from a re-analysis of the deposited data

How the results depend on the processing

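Of 77 values under alternatives, 70 moved by no more than their counting interval, or by less than 1.5 times for counts, 7 moved further and 0 changed direction. Counting hotspots in the gene body alone gave 39 for Benzonase, 34 for Cyanase and 46 for DNase I. Asking for an overlap of 50% of both hotspots gave a common share of 54.3%, or 70 of 129 regions, beside 37.2% over the genome, and a Benzonase-Cyanase unique share of 19.4% in place of 12.3%. The gap in median GC content, Benzonase-Cyanase unique minus DNase I unique, was 15.1 percentage points. It was 19.0 over the central 150 bp and 13.6 with hotspots within 150 bp joined. All of these gaps include regions on neighbouring genes. With a hotspot within 1 kb of a start site, 2 of 3 ileal genes were called with Benzonase in place of 1. The cause of these shifts was not tested beyond the smaller window of the first and the stricter overlap of the second. The start site calls of the 10 genes were the same under each alternative run. Leaving out regions on another protein-coding gene, chosen after seeing the data, gave a common share of 66.3%, beside 48.7% over the windows of all protein-coding genes. No paired analysis was possible because the lists pool the libraries of each nuclease, and for the same reason no library could be left out. Without tag numbers, weak sites near the calling threshold cannot be told from missing ones.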
